A study of Mus musculus with 16 samples.

Results

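The Iroquois homeobox genes Irx1, Irx2, Irx3, Irx4, Irx5 and Irx6 were followed in the atria and ventricles of mouse hearts at E15.5 (days of embryonic development). They were picked by symbol from the deposited expression table, and all 6 were found among its 16118 genes. The dKO embryos were Meis1flox/flox; Meis2flox/flox; aMHC tg/wt, so that Cre, driven by the heart-muscle promoter of the alpha-myosin heavy chain gene, could delete both floxed genes in cardiomyocytes. The control embryos were Meis1flox/flox; Meis2flox/flox; aMHC +/+, and therefore carried the same floxed alleles without Cre. Polyadenylated RNA was sequenced from 4 dKO ventricles, 4 control ventricles, 4 dKO atria and 4 control atria, 1 of each chamber per embryo. The protocol names 4 litters with a control and a dKO embryo each, whereas the sample titles open with 3 numbers, held by 2 dKO and 2 control embryos, by 1 dKO and 2 control embryos, and by 1 dKO embryo alone. Whether the deletion was the constitutive or the inducible one named in the series design was not settled from the labels.

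Iroquois proteins are transcription factors of the TALE homeobox class, to which Meis1 and Meis2 also belong. In mammals the family lies in a pair of gene clusters. In mouse heart Irx4 is known as a marker of ventricular muscle, Irx3 for its part in fast conduction through the His-Purkinje system, and Irx5 for the gradient of potassium current across the ventricular wall. Irx1 and Irx2 are known from the developing ventricular septum.

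On the mouse build GRCm38, with the GENCODE M21 annotation, the IrxA cluster spans 1.31 Mb of chromosome 13. It holds Irx1 (ENSMUSG00000060969, chr13:71957921-71963723, minus strand), Irx2 (ENSMUSG00000001504, chr13:72628820-72634198, plus strand) and Irx4 (ENSMUSG00000021604, chr13:73260479-73269608, plus strand). The IrxB cluster spans 0.882 Mb of chromosome 8. It holds Irx3 (ENSMUSG00000031734, chr8:91798525-91802067, minus strand), Irx5 (ENSMUSG00000031737, chr8:92357625-92376286, plus strand) and Irx6 (ENSMUSG00000031738, chr8:92674288-92680956, plus strand). All 6 are protein-coding genes. Exons of Irx3 share 124 bases, 4.49% of its exonic length, with the antisense gene Irx3os, and exons of Irx6 share 152 bases with the antisense gene Gm45505. The sources used here do not give the use of strand, so reads from those bases cannot be assigned.

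Upstream sequences were taken from RefSeq on GRCm38.p6, where 3 of the 6 members matched. All 3 are shown, Irx2 and Irx4, whose RNA was lower in dKO ventricles, and Irx3, whose values overlapped with those of controls there. Irx1, Irx5 and Irx6 had no entry. Each run is the 250 bases before the RefSeq start, 5′ to 3′ on the strand of the gene, at chr13:72628570-72628819 (plus) for Irx2, chr13:73260247-73260496 (plus) for Irx4 and chr8:91801655-91801904 (minus) for Irx3. By the GENCODE boundaries above, the Irx3 window lies inside the gene and the Irx4 window reaches a few bases into it.
Irx2: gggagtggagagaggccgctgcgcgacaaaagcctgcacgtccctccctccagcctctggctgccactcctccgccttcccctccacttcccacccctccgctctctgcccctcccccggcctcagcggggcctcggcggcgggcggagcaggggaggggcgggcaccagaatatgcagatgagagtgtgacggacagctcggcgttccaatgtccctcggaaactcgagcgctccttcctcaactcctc
Irx4: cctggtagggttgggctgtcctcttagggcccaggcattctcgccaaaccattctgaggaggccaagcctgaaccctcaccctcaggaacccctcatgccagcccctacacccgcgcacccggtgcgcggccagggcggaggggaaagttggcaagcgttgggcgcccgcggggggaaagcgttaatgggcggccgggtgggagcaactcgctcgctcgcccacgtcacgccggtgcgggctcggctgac
Irx3: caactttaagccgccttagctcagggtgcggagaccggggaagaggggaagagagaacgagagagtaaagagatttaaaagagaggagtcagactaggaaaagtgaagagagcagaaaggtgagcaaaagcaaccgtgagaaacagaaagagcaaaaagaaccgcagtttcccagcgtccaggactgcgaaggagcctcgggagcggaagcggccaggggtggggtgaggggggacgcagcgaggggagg
G and C made up 68.4% of the Irx2 run, 68.8% of the Irx4 run and 56.0% of the Irx3 run, against a median of 52.4% over 32851 promoter windows of the same length. The Meis-type motif TGACAG, searched on both strands, had 0 matches in each of these runs, and 15.9% of all windows held it. The Iroquois-type motif ACANNTGT, which reads the same on both strands, had 0 matches in each, and 6.31% of all windows held it. These counts say only that the letters were absent from these windows, and no capitals are used because nothing matched.

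The libraries held 7.88 to 23.0 megareads in listed genes. The dKO ventricles (7.88 to 14.3 megareads) were shallower than the control ventricles (15.6 to 23.0 megareads), while dKO atria (14.3 to 19.3) and control atria (14.8 to 19.4) were alike. Values are CPM, read counts scaled to library size, and 3 reads, taken as the floor of detection, were worth 0.110 to 0.312 CPM. All 12 ventricular myocyte markers were higher in ventricles and all 12 atrial myocyte markers lower there, in dKO as in control embryos (limma, adjusted p under 0.05). The marker lists were chosen with earlier results of these data known, so these counts are not an independent check of the chamber labels. Of the targeted genes, Meis2 measured 20.5 to 26.9 CPM in dKO ventricles and 35.4 to 43.6 CPM in control ventricles, and Meis1 measured 22.9 to 30.5 CPM in dKO atria and 37.9 to 43.9 CPM in control atria. Meis1 in ventricles (37.8 to 43.4 CPM in dKO, 36.2 to 45.6 CPM in controls) and Meis2 in atria (25.1 to 29.2 CPM in dKO, 22.8 to 27.8 CPM in controls) overlapped between genotypes. Values summed over a gene include exons outside the deleted part and RNA of cells without Cre, so they check the labels only in part.

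Irx4 and Irx2, both of the IrxA cluster, fell in the dKO ventricles to 65.2 to 69.7% of control level, whereas Irx3 overlapped with its controls. Irx5 lay just below its control range, and Irx1 and Irx6 had lower means with overlapping ranges. In this comparison 2 of the 6 members were called lower and 0 higher at an adjusted p under 0.05 (limma), and 4 of 6 had a raw p under 0.05. Over all 13950 genes tested, 2% were called, 1.01% as lower and 0.989% as higher, and 12.8% had a raw p under 0.05. In bulk tissue, fewer cells of a type and less RNA per cell cannot be told apart.

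Irx4, the ventricular member, measured 54.9, 56.7, 59.8 and 55.2 CPM in the dKO ventricles, against 73.8, 75.3, 85.5 and 90.4 CPM in the control ventricles. The 4 dKO values lay within a narrow band below the lowest control, and the controls were spread more widely. The means were 56.6 ± 2.24 CPM in dKO ventricles and 81.3 ± 8.0 CPM in control ventricles (SD, n = 4 each), which put the dKO level at 69.7% of control. The log2 difference was -0.51 ± 0.07 (SE), with a 95% interval of -0.65 to -0.36 and an adjusted p = 0.00156 by limma. The exact permutation test of 4 against 4 libraries gave a two-sided p = 0.0286, the smallest it can give.

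Irx2 measured 12.7, 16.8, 15.1 and 17.0 CPM in the dKO ventricles, against 26.7, 20.5, 23.9 and 23.6 CPM in the control ventricles. Every dKO value was again below every control value. The means were 15.4 ± 1.97 CPM in dKO ventricles and 23.7 ± 2.5 CPM in control ventricles (SD, n = 4 each), or 65.2% of control. Irx2 fell by 0.59 on the log2 scale (SE 0.11, 95% interval -0.82 to -0.36, limma adjusted p = 0.0108), and the exact permutation p was 0.0286.

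The calls on Irx4 and Irx2 held without any single embryo, by edgeR and DESeq2 on recovered reads and with the title number as a covariate, where Irx4 measured -0.48 (adjusted p = 0.00434) and Irx2 -0.50 (adjusted p = 0.0309). Within the title number shared by 2 dKO and 2 control embryos, Irx4 measured -0.35 (limma adjusted p = 0.0908) and Irx2 -0.53 (adjusted p = 0.233), so neither was called. The other title numbers hold 1 dKO embryo each and gave no value of their own. In the fit to all 16 libraries with embryo as a replicate block the differences were unchanged at -0.51 and -0.59, but the adjusted p was 0.0553 for Irx4 and 0.119 for Irx2, and neither was called.

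Irx5, which shapes the transmural repolarization gradient, measured 8.81, 11.1, 11.1 and 9.33 CPM in the dKO ventricles, against 16.4, 11.8, 14.8 and 11.3 CPM in the control ventricles. The groups did not overlap, but the highest dKO value and the lowest control value were close. The means were 10.1 ± 1.18 CPM in dKO ventricles and 13.6 ± 2.46 CPM in control ventricles (SD, n = 4 each). Its log2 difference of -0.39 (95% interval -0.67 to -0.1) was not called by limma (adjusted p = 0.205), and the exact permutation p was 0.0286. With Irx2 and Irx4 it made 3 of 6 members whose dKO ventricles all lay below the controls, and 4.78% of all genes tested did so.

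Irx1, the third gene of the IrxA cluster, measured 13.4, 12.5, 15.8 and 19.1 CPM in the dKO ventricles, against 20.8, 16.3, 20.4 and 18.1 CPM in the control ventricles. The first 3 dKO embryos lay below all controls and the last lay among them. The log2 difference of -0.31 (95% interval -0.58 to -0.03) had an adjusted p = 0.323 by limma, with an exact permutation p = 0.114.

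Irx3, the conduction-system member, measured 26.4, 33.2, 25.5 and 25.2 CPM in the dKO ventricles, against 28.0, 25.1, 28.3 and 24.3 CPM in the control ventricles. Apart from 1 high dKO library the values covered the same range. The log2 difference was 0.05 with a 95% interval of -0.15 to 0.26 (limma adjusted p = 0.86), which does not reach down to the differences of Irx4 and Irx2. Without the dKO embryo with 33.2 CPM the difference was -0.03. Irx6 was near the bottom of the range, with 8 to 13 reads (0.541 to 1.19 CPM) in dKO ventricles and 15 to 35 reads (0.604 to 1.66 CPM) in control ventricles. Its log2 difference of -0.18 (95% interval -0.62 to 0.25, adjusted p = 0.765) was not called, and at this depth a difference of the size seen for Irx2 lies inside that interval.

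**Figure D1:**
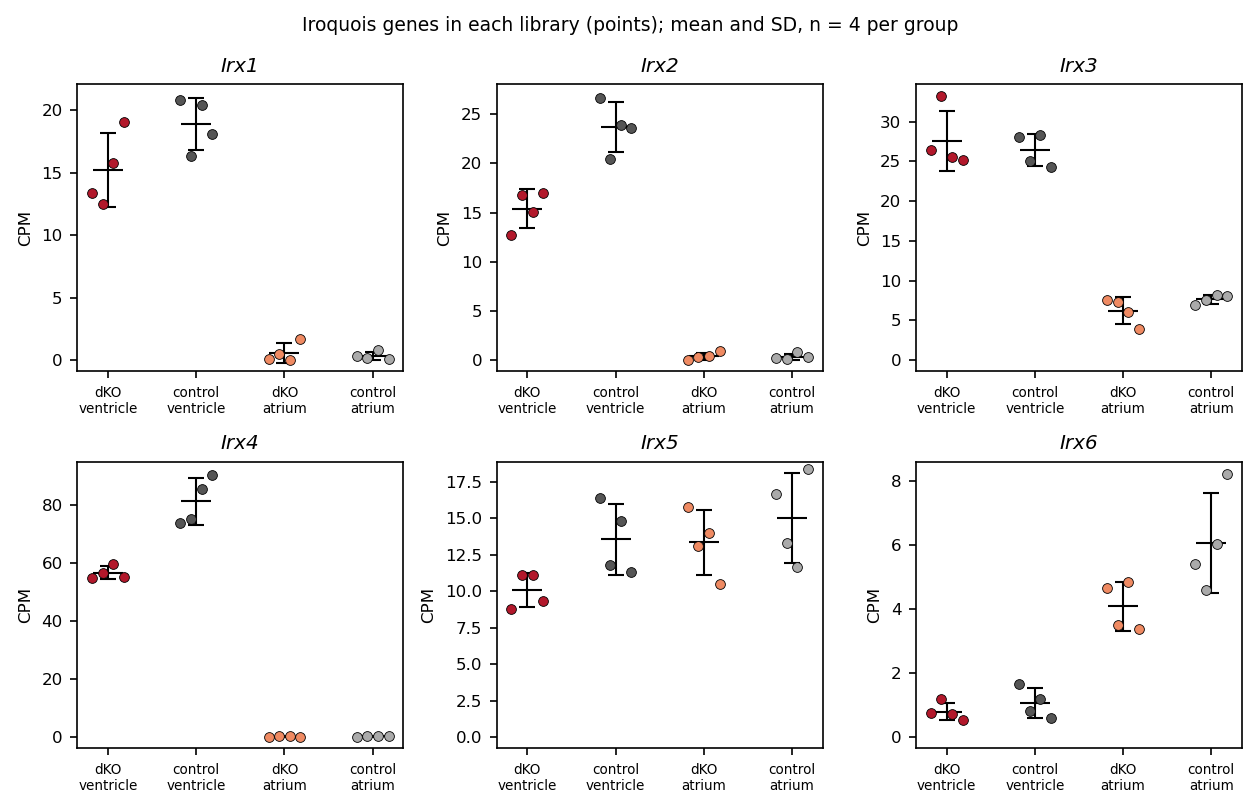
CPM of each Iroquois gene (vertical axes, 1 scale per gene) in the 16 libraries; each point is a library, in replicate order within its group, and bars show the mean and SD of 4 libraries. The 4 dKO ventricles of Irx4 sit between 54.9 and 59.8 CPM, all below the control ventricles, and Irx1, Irx2 and Irx4 are close to 0 in every atrium.

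In the atria 0 of 6 members were called, where 7.47% of all genes were called and 20.3% had a raw p under 0.05 (limma). By unadjusted p, 1 member passed 0.05, and edgeR and DESeq2 on recovered reads also called 0, DESeq2 leaving Irx1, Irx2 and Irx4 without an adjusted p. The ranges of dKO and control atria overlapped for 6 of 6 members, whereas they did not for 14.1% of all genes. The member with a raw p under 0.05 was Irx6, the most atrial of the family. It measured 4.65, 3.5, 4.84 and 3.38 CPM in the dKO atria, against 5.4, 4.61, 6.03 and 8.22 CPM in the control atria. The ranges overlapped, since the lowest control lay among the dKO values. The log2 difference was -0.46 (SE 0.17, 95% interval -0.83 to -0.08, raw p = 0.0208, adjusted p = 0.146), and the exact permutation p was 0.0857.

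Irx3 measured 7.58, 7.27, 6.04 and 3.88 CPM in the dKO atria, against 6.87, 7.52, 8.16 and 8.05 CPM in the control atria. The log2 difference of -0.30 (limma adjusted p = 0.37) shrank to -0.12 without the fourth dKO embryo, which held the lowest value. It grew to -0.42 with the title number as a covariate and to -0.39 without the first dKO embryo. Over 19 alternative settings it stayed negative, from -0.42 to -0.1, and was not called in any. Irx5 measured 10.5 to 15.8 CPM (median 13.5) in the dKO atria and 11.7 to 18.4 CPM (median 15.0) in the control atria, a log2 difference of -0.15 (95% interval -0.48 to 0.18). Irx1, Irx2 and Irx4 were so low in atria, at 0 to 33 reads per dKO library and 1 to 15 reads per control library, that a difference between genotypes was not detectable at this depth. Their fitted atrial differences were 0.14 for Irx1, 0.04 for Irx2 and -0.10 for Irx4, each with an interval across 0.

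The fourth dKO atrium stood apart among the atria, and was singled out after its values were seen. Irx1 had 33 reads (1.68 CPM) there, with 0 to 11 reads in the other dKO atria and 1 to 15 reads in the control atria. Irx2 likewise had its atrial maximum there (17 reads, 0.876 CPM), though the third control atrium was close with 15 reads. Irx3 and Irx5 had their atrial minima there (3.88 and 10.5 CPM), where the lowest values of the other atria were 6.04 and 11.7 CPM. Irx4 had 1 to 13 reads in the other atria and 0 in this library. In the same library Eln, which encodes elastin, measured 1424 CPM, with 163 to 384 CPM in the other dKO atria and 238 to 405 CPM in the control atria. The elastic fibre gene Fbln5 measured 135 CPM there, against 14.8 to 38.1 CPM in the other 7 atria, and the homeobox gene Hoxa5 measured 9.24 CPM, against 0.190 to 2.42 CPM. The part of these in the Iroquois values was not tested. Without that embryo the atrial differences were -0.16 for Irx1, -0.11 for Irx2, -0.12 for Irx3, -0.01 for Irx4, -0.05 for Irx5 and -0.39 for Irx6, and 0 members were called.

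**Figure D2:**
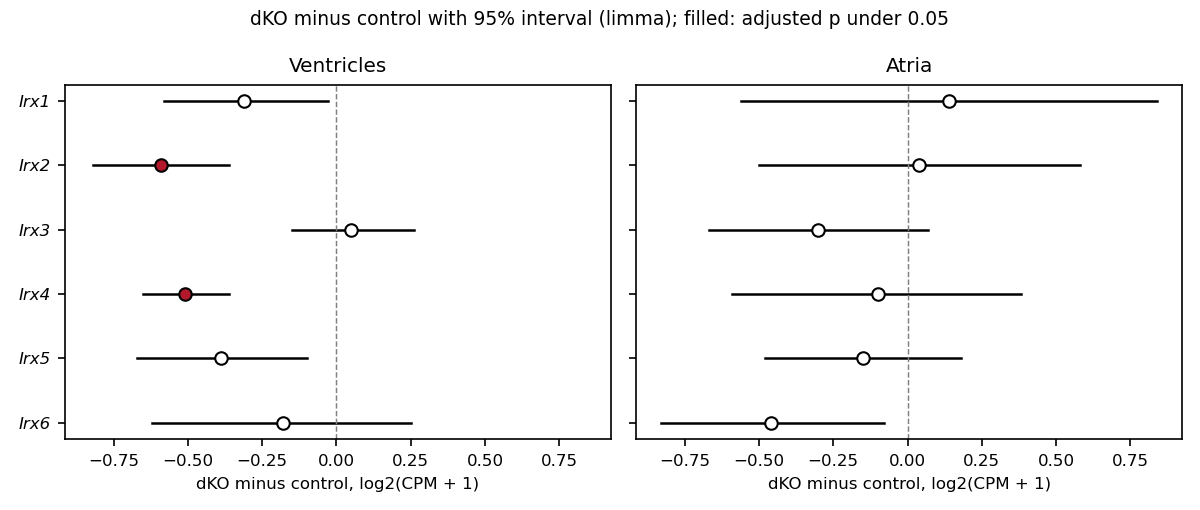
Difference of dKO minus control on the log2(CPM + 1) scale (horizontal axes) for each Iroquois gene in ventricles (left) and atria (right), with 95% intervals from limma; filled points have an adjusted p under 0.05. Irx4 at -0.51 and Irx2 at -0.59 in ventricles are the filled points, and the atrial intervals of Irx1 and Irx2 are wide.

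Whether the dKO effect differed between chambers was fitted as an interaction. It was called for 0 of 6 members by limma, against 2.64% of all genes, and 2 of 6 members (Irx2 and Irx4) had a raw p under 0.05, against 13.4% of all genes. The estimates for ventricles minus atria were -0.63 for Irx2 (adjusted p = 0.205), -0.41 for Irx4 (adjusted p = 0.301), -0.45 for Irx1, 0.35 for Irx3, -0.24 for Irx5 and 0.27 for Irx6. edgeR and DESeq2 also called 0 members. With a pseudocount of 5 in place of 1, which weighs the few atrial reads less, both Irx2 (-0.50, adjusted p = 0.0126) and Irx4 (-0.46, adjusted p = 0.00558) were called. That pseudocount compresses the atrial differences of these low genes, to 0.012 for Irx2 and -0.025 for Irx4. The interaction then nearly repeats the ventricular differences under the same setting (-0.49 for Irx2 and -0.48 for Irx4). These 2 calls therefore do not show that the effect differs between chambers. By DESeq2 the estimate for Irx4 was 0.07.

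Between chambers the family divided by member. Irx4, Irx2, Irx1 and Irx3 were higher in the ventricle, Irx6 was lower there, and Irx5 was present in both chambers at similar levels. In dKO embryos 6 of 6 members were called (limma, embryo as block), 4 higher and 2 lower, where 49.1% of all genes were called, 26.5% higher and 22.5% lower. In control embryos 5 of 6 were called, 4 higher and 1 lower, where 46.9% of all genes were called, 26.4% higher and 20.5% lower. The dKO libraries of each chamber enter both kinds of comparison, so the 2 sets of values are not independent.

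Irx4 averaged 56.6 CPM in dKO ventricles and 0.251 CPM in dKO atria, and 81.3 CPM in control ventricles and 0.343 CPM in control atria. It was higher in the ventricle in 8 of 8 embryos. The log2 difference was 5.54 (95% interval 5.28 to 5.8, adjusted p = 3.73e-16) in dKO embryos and 5.95 (5.69 to 6.21, adjusted p = 1.64e-16) in control embryos. Irx2 had 15.4 CPM in dKO ventricles and 0.396 CPM in dKO atria, and 23.7 CPM in control ventricles and 0.349 CPM in control atria, a log2 difference of 3.58 in dKO and 4.21 in control embryos. Irx1 had 15.2 CPM in dKO ventricles and 0.561 CPM in dKO atria, and 18.9 CPM in control ventricles and 0.336 CPM in control atria, a log2 difference of 3.47 in dKO and 3.92 in control embryos. Both were higher in the ventricle in 8 of 8 embryos. The sizes for these 3 genes rest on few atrial reads and move with the pseudocount and the test, over 4.01 to 8.21 for Irx4, 2.42 to 6.48 for Irx2 and 2.16 to 6.41 for Irx1 in control embryos.

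Irx3 kept a measurable atrial level. It averaged 27.6 ± 3.76 CPM in dKO ventricles and 6.19 ± 1.68 CPM in dKO atria, and 26.4 ± 2.0 CPM in control ventricles and 7.65 ± 0.588 CPM in control atria (SD, n = 4 each). The ratio of ventricle to atrium was 4.46 in dKO embryos and 3.45 in control embryos, the log2 differences were 2.02 and 1.66, and the ventricle was higher in 8 of 8 embryos. Irx6 ran the other way, with 0.805 ± 0.277 CPM in dKO ventricles and 4.09 ± 0.759 CPM in dKO atria, and 1.07 ± 0.464 CPM in control ventricles and 6.06 ± 1.55 CPM in control atria (SD, n = 4 each). Its log2 difference was -1.50 in dKO embryos (adjusted p = 1.77e-06) and -1.77 in control embryos (adjusted p = 2.37e-07), and it was lower in the ventricle in 8 of 8 embryos.

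Irx5 averaged 10.1 CPM in dKO ventricles and 13.4 CPM in dKO atria, and 13.6 CPM in control ventricles and 15.0 CPM in control atria. It was lower in the ventricle in 4 of 4 dKO embryos (differences of -0.78 to -0.16) and in 3 of 4 control embryos (-0.66 to 0.32). The difference was called in dKO embryos (-0.37, adjusted p = 0.0379 by limma) and not in control embryos (-0.13, adjusted p = 0.478), and the interaction between them was not called. The dKO call was lost without the first dKO embryo (-0.23, adjusted p = 0.247), without the second (adjusted p = 0.0536), without the third (adjusted p = 0.0796) and under quantile normalization (adjusted p = 0.0838). In control embryos the sign turned to 0.04 without the fourth control embryo.

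**Figure D3:**
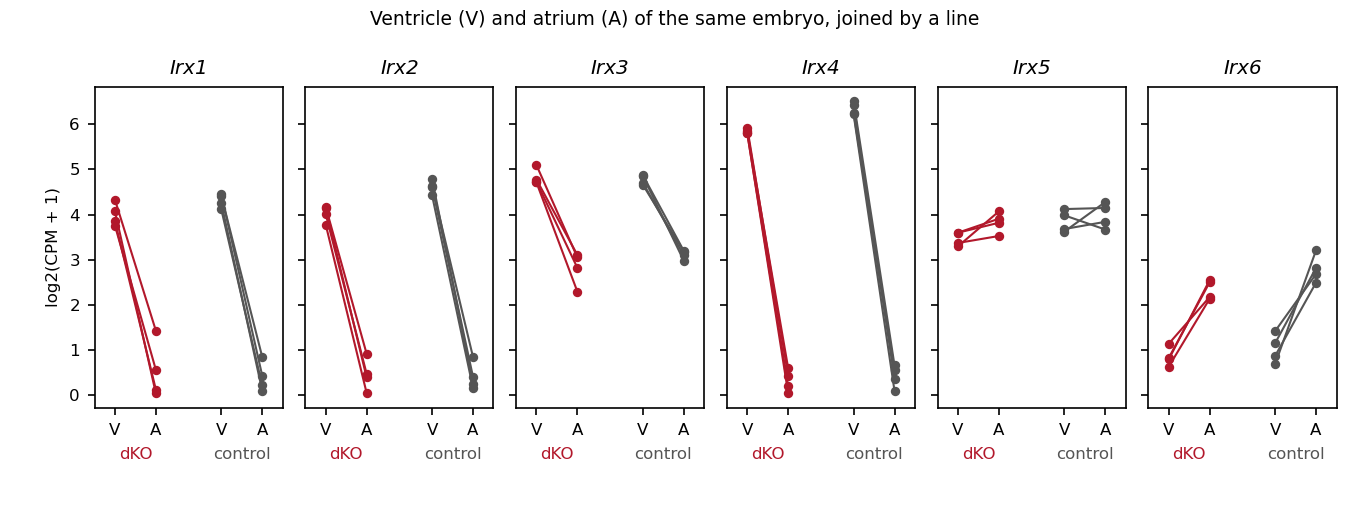
log2(CPM + 1) of each Iroquois gene (vertical axis, shared) in the ventricle (V) and atrium (A) of the same embryo, joined by a line, with 4 dKO embryos on the left and 4 control embryos on the right of each panel. Lines descend to the atrium for Irx1 to Irx4 in 8 of 8 embryos, ascend for Irx6 in 8 of 8, and run nearly level for Irx5.

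To compare members with each other, CPM was divided by exonic length in kb. In dKO ventricles the order of these levels was Irx4 (21.7 ± 0.858 CPM per kb), Irx3 (10.0 ± 1.36), Irx1 (5.8 ± 1.13), Irx2 (4.7 ± 0.601), Irx5 (3.22 ± 0.376) and Irx6 (0.239 ± 0.0822). In control ventricles it was Irx4 (31.2 ± 3.07 CPM per kb), Irx3 (9.57 ± 0.724), Irx2 (7.21 ± 0.761), Irx1 (7.21 ± 0.796), Irx5 (4.34 ± 0.787) and Irx6 (0.318 ± 0.138). Irx1 and Irx2 overlapped in both genotypes, and the other neighbours in the order did not. In dKO atria Irx5 led with 4.27 ± 0.705 CPM per kb, ahead of Irx3 (2.24 ± 0.608) and Irx6 (1.21 ± 0.225), whose ranges overlapped. In control atria Irx5 (4.8 ± 0.987 CPM per kb), Irx3 (2.77 ± 0.213) and Irx6 (1.8 ± 0.459) were separate. The other 3 members overlapped with one another in the atria of both genotypes, at means of 0.0965 to 0.214 CPM per kb in dKO and 0.106 to 0.132 in controls.

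Summed over the 6 genes, the family measured 42.6 to 47.5 CPM per kb in dKO ventricles and 54.5 to 63.2 in control ventricles, and 6.69 to 9.28 in dKO atria and 8.6 to 11.6 in control atria. Irx4 made up 45.7 to 49.3% of the ventricular sum in dKO embryos and 47.0 to 56.5% in control embryos. The share of Irx3 was 19.9 to 25.3% in dKO ventricles and 14.4 to 16.8% in control ventricles, where its own level was 10.0 CPM per kb in dKO and 9.57 CPM per kb in controls and the sum of the family was lower in dKO. In atria Irx5 made up 50.3 to 54.6% of the sum in dKO embryos and 40.9 to 55.4% in control embryos.

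**Figure D4:**
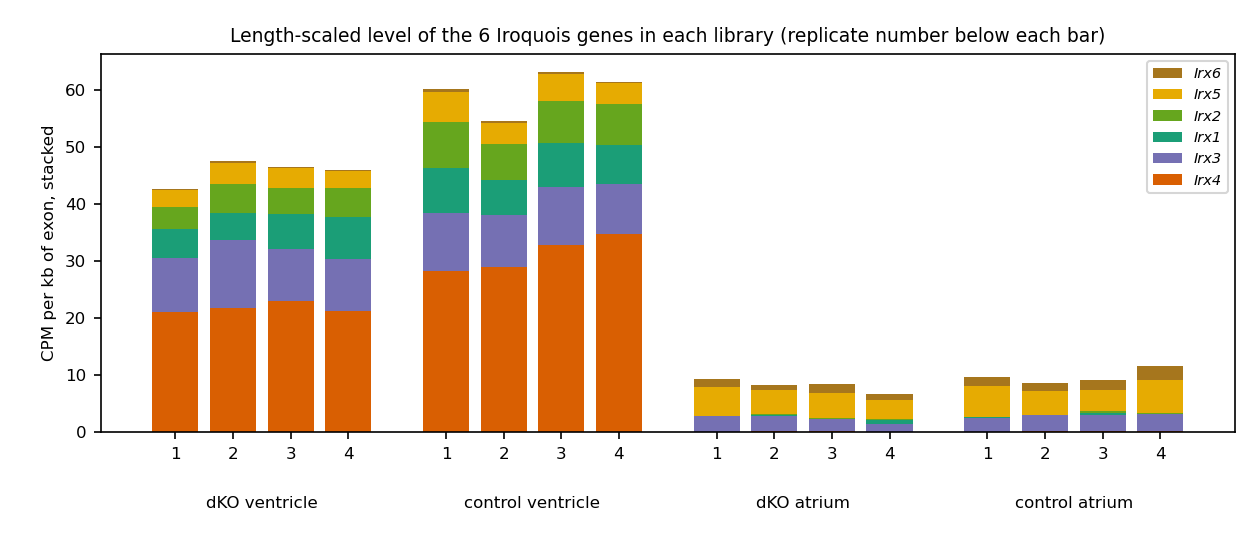
Length-scaled level of the 6 Iroquois genes, stacked, in CPM per kb of exon (vertical axis, from 0) for each of the 16 libraries (replicate number below the bar). The stacks reach 42.6 to 47.5 in dKO ventricles and 54.5 to 63.2 in control ventricles, with Irx4 at the base as the widest segment, and Irx5 is the widest segment in each atrium.

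Genes around the clusters were read for comparison, taking each listed gene within 500 kb of a member. Of 16 such genes 13 were tested. In dKO ventricles 1 was called lower and 0 higher, where 1.01% of all genes tested were called lower and 0.989% higher. The called gene was Eprn, a long intergenic noncoding RNA 75.1 kb from Irx4, with 3.20 ± 0.781 CPM in dKO ventricles and 7.13 ± 1.12 CPM in control ventricles (SD, n = 4 each), a log2 difference of -0.96 (limma adjusted p = 0.00842). Nearer to Irx4, the respiratory chain gene Ndufs6 (50.2 kb away) measured -0.15 (adjusted p = 0.301) and the mitochondrial ribosomal gene Mrpl36 (58.9 kb away) -0.28 (adjusted p = 0.149). Neither was called. On the IrxB side, Crnde, a noncoding transcript 1.5 kb from Irx5, measured -0.24 (adjusted p = 0.594), and Fto, a demethylase gene 130 kb from Irx3, measured -0.05 (adjusted p = 0.75). In dKO atria 2 neighbours were called higher, the matrix metalloproteinase gene Mmp2 (0.45, adjusted p = 0.0293) and the carboxylesterase gene Ces1d (1.91, adjusted p = 0.000232), whose close paralogs make its value uncertain, and 0 were called lower. Of all genes tested, 7.47% were called in atria in either direction. Whether such small counts of neighbours differ from the shares over all genes was not tested. The other neighbours tested, Lpcat1, Clptm1l, Tert, Slc12a7, Rpgrip1l and Lpcat2, were called in neither chamber. Gm20554, Irx3os and Slc6a2 were under the minimum level.

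A list of 12 genes tied to Iroquois factors by published heart work, chosen with earlier results of these data known, was then read. In dKO ventricles 2 were called higher and 1 lower, where 0.989% of all genes tested were called higher and 1.01% lower. The median log2 difference of the list was -0.14, beside -0.018 over all genes tested. Gja5, the conduction connexin, measured 167 ± 9.04 CPM in dKO ventricles and 105 ± 11.5 CPM in control ventricles (SD, n = 4 each), a log2 difference of 0.67 (limma adjusted p = 0.000416). Nppa, the atrial natriuretic peptide gene, measured 2722 ± 264 CPM in dKO ventricles and 744 ± 182 CPM in control ventricles, a log2 difference of 1.90 (adjusted p = 3.36e-05). Gja1, the main connexin of working muscle, measured 326 to 363 CPM in dKO ventricles and 414 to 449 CPM in control ventricles, a log2 difference of -0.33 (adjusted p = 0.00232). Kcnd2, the potassium channel gene repressed by Irx5 in mouse ventricle, had 5.42 CPM in dKO ventricles and 8.18 CPM in control ventricles, and its difference of -0.50 was not called (adjusted p = 0.224). In dKO atria Nppa was called higher (0.63, adjusted p = 0.0184), and Gja1 (-1.39, adjusted p = 1.37e-05), the retinoid receptor gene Rxra (-0.35, adjusted p = 0.0135) and the trabecular growth factor gene Bmp10 (-0.85, adjusted p = 0.0225) were called lower. Of all genes tested, 7.47% were called in atria in either direction. The median of the list in atria was -0.06, beside -0.005 over all genes tested.

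Among 12 other TALE homeobox genes 11 were tested, and in dKO ventricles 1 was called lower, Meis2 (-0.73, limma adjusted p = 0.0011). In dKO atria 1 was called lower, Meis1 (-0.62, adjusted p = 0.00135). Of all genes tested, 1.01% were called lower in ventricles, and 7.47% were called in atria in either direction. The medians of the list were -0.09 in ventricles and -0.01 in atria.

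Cell type markers were read in the same libraries. The lists were chosen with earlier results of these data known, so the counts of called markers are not an independent check. Of 12 ventricular myocyte markers, 4 were called lower in dKO ventricles and 0 higher, beside 1.01% lower and 0.989% higher of all genes tested. The median of the list was -0.24, with 11 of 12 below 0. The called markers were Lrrc10 (-0.41, limma adjusted p = 0.00113), Gja1, the transcriptional coregulator gene Cited1 (-0.64, adjusted p = 0.00286) and the neuron navigator gene Nav1 (-0.35, adjusted p = 0.00342). These 4 had the smallest log2 differences of ventricle minus atrium of the list in control embryos, 0.49 to 1.16. The rest of the list, at 1.605 to 7.48 in that comparison, held no gene called in dKO ventricles. The 12 markers together measured 20031 to 21633 CPM in dKO ventricles and 22596 to 24736 CPM in control ventricles, with 0 markers at 0 reads. In dKO atria, where 0 Iroquois genes were called, 6 of these 12 markers were called lower and 0 higher, with a median of -0.50, among them Lrrc10 (-2.14, adjusted p = 1.09e-05) and Cited1 (-1.85, adjusted p = 0.000104). Of all genes tested, 7.47% were called in atria in either direction. The 12 ventricular markers together measured 542 to 1400 CPM in dKO atria and 939 to 2209 CPM in control atria. Of 12 atrial myocyte markers, 4 were called higher in dKO ventricles and 0 lower, Nppa, the myosin light chain gene Myl4 (0.46, adjusted p = 0.00124), the growth factor homolog Fgf12 (1.63, adjusted p = 0.00495) and the T-box gene Tbx5 (0.41, adjusted p = 0.0249). The median of that list was -0.05, with 7 of 12 below 0. Its summed level was 4185 to 4908 CPM in dKO ventricles and 1954 to 2456 CPM in control ventricles, of which Nppa alone averaged 2722 CPM in dKO and 744 CPM in controls. Lists for endothelial, fibroblast, epicardial, smooth muscle, macrophage and neural cells had 0 called genes in dKO ventricles by limma. Only 4 of the 8 neural genes were above the minimum level and tested. Summed endothelial markers measured 1230 to 1303 CPM in dKO ventricles and 1278 to 1329 CPM in control ventricles, and fibroblast markers 4755 to 5910 CPM in dKO and 5055 to 5741 CPM in controls. Epicardial markers summed to 137 to 179 CPM in dKO and 130 to 182 CPM in controls, smooth muscle markers to 1956 to 2159 CPM in dKO and 1746 to 2130 CPM in controls, and macrophage markers to 73.2 to 82.9 CPM in dKO and 69.0 to 81.1 CPM in controls. Neural markers summed to 6.37 to 9.74 CPM in dKO and 6.68 to 9.33 CPM in controls, with up to 2 and 3 of their 8 genes at 0 reads in a library of dKO and of control ventricles. The medians of these lists were -0.05 to 0.06. Apart from the neural list, the 2 most abundant genes of each list by mean over the 16 libraries, Eng and Cdh5, Col1a1 and Col3a1, Upk3b and Tbx18, Acta2 and Cnn1, and Csf1r and Mrc1, had log2 differences of -0.16 to 0.17 in ventricles. Abcc9, a smooth muscle and pericyte marker more abundant than Cnn1 in ventricles, measured -0.27 (adjusted p = 0.0633), and in the neural list Stmn2 measured -0.47 (adjusted p = 0.33). Of trabecular and conduction markers, 11 of 12 were tested, and 2 were called higher (Nppa and Gja5) and 1 lower (Id2, -0.42, adjusted p = 0.0136). The part of such shifts in the Irx4 and Irx2 values was not tested.

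**Figure D5:**
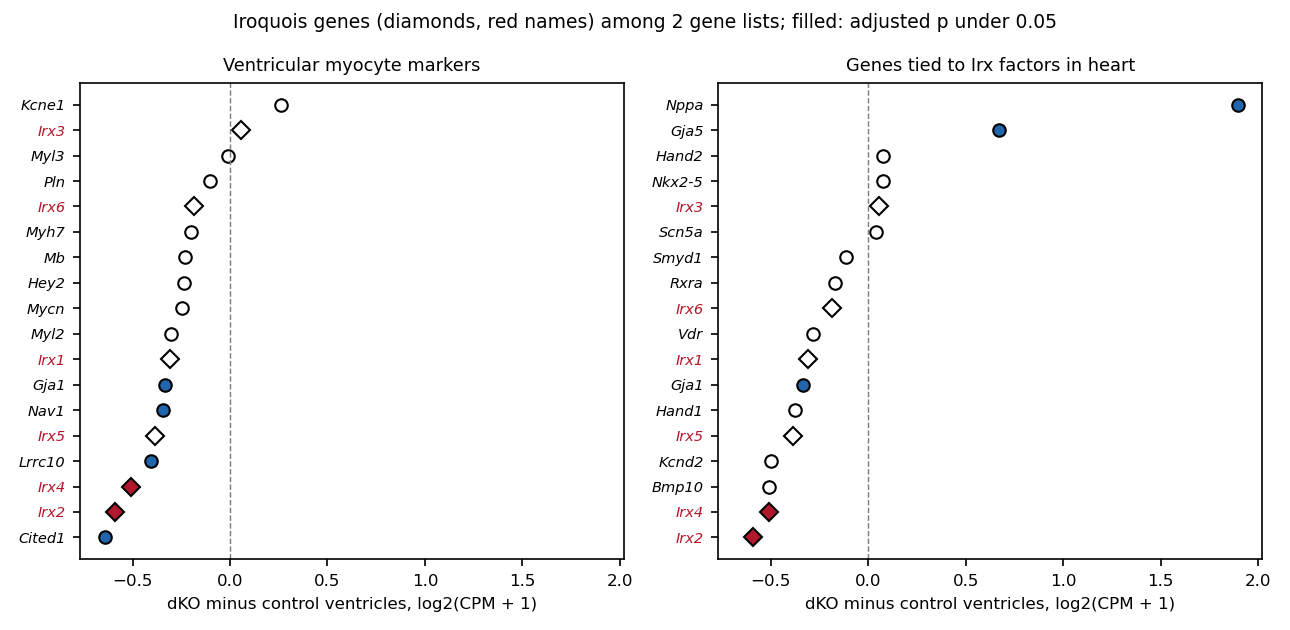
Difference of dKO minus control ventricles on the log2(CPM + 1) scale (horizontal axes) for the Iroquois genes (diamonds, red names) among ventricular myocyte markers (left) and genes tied to Iroquois factors (right), sorted by difference; filled symbols have an adjusted p under 0.05. Irx2 and Irx4 lie at the low end of both panels, next to Cited1 and Lrrc10 on the left, and Nppa at 1.90 lies farthest to the right.

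Genes with the most similar pattern were found by Pearson r of log2(CPM + 1) over the 16 libraries, which share the split by chamber. Closest to Irx4 were Mb, the myoglobin gene (0.997), Myl2, the ventricular myosin light chain gene (0.994), and Fbxo40, a muscle F-box gene (0.994). Within ventricles (8 libraries) r with Irx4 was 0.73 for Mb, 0.89 for Myl2 and 0.19 for Fbxo40, and within atria it was 0.62, 0.30 and 0.03 for the same genes. Closest to Irx1 were the transcription factor genes Hand1 (0.993) and Hey2 (0.99) and the predicted gene Gm13111 (0.99), and closest to Irx2 were Hand1 (0.994), Hey2 (0.99) and the peptidase gene Prep (0.99). Hand1 had 8.48 CPM in dKO ventricles and 11.3 CPM in control ventricles, and 0.189 CPM in dKO atria and 0.266 CPM in control atria. Within ventricles its r was 0.89 with Irx1 and 0.74 with Irx2. For Irx3 the nearest genes were Ivns1abp (0.988), Macrod1 (0.985) and the cotransporter gene Slc12a7 (0.984). For Irx6 they included Trim54, a muscle ring finger gene (0.976), and Large2 (0.967). For Irx5, which differed little between chambers, r over the 16 libraries was lower. Its nearest genes were the signal transducer gene Smad4 (0.855), the kinase gene Tec (0.832) and Jph1, a junctophilin gene (0.781). Within ventricles r with Irx5 was 0.81 for Smad4, 0.86 for Tec and 0.69 for Jph1. Within atria it was 0.9, 0.81 and 0.78 for the same genes.

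Among the members themselves, r over 16 libraries was 0.99 for Irx1 with Irx2 and for Irx2 with Irx4, and -0.93 for Irx4 with Irx6. Within the 8 ventricles r was 0.77 for Irx1 with Irx2, 0.85 for Irx2 with Irx4, 0.85 for Irx2 with Irx5, and -0.25 for Irx3 with Irx4. Within the 8 atria Irx5 with Irx6 gave 0.66, and Irx2 with Irx4 gave -0.21. Irx4 with Irx6 was not negative within a chamber, with 0.21 in ventricles and 0.35 in atria. These are descriptions over libraries that share embryos and genotype.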

How the data were processed

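Polyadenylated RNA of 16 heart libraries was read as single reads. Per the submitters' processing notes, cutadapt was used for trimming and RSEM 1.3.1 for quantification, with GRCm38 as the build. The values deposited by the authors are normalized CPM of 16118 genes, and how they were normalized, filtered and counted by strand is not stated here. Each deposited CPM value was a whole read number plus 0.5, times a step per library; 100% of values came out whole within a tolerance of 0.001, and the recovered reads gave depths, floors and the tests on counts. Floors cover counting error only, and the printed 95% intervals come from limma and include the spread between embryos.

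The 13950 genes that averaged 1 CPM or more over the 16 libraries were fitted on log2(CPM + 1), which understates the change of low genes, with limma 3.58.1 in R 4.3.3 (trend, two-sided, Benjamini-Hochberg over all genes tested), and calls required an adjusted p under 0.05. The dKO comparisons used the 8 libraries of a chamber. The chamber comparisons and the interaction used all 16 with embryo as a block, taken from the titles, where the atrium and ventricle of 1 embryo share a number (consensus correlation 0.108). No label pairs dKO with control embryos. Replicates are separate embryos per the titles. Alternatives were pseudocounts of 0.5 and 5, no minimum or 5 CPM, quantile normalization, median re-centring, edgeR 4.0.16 and DESeq2 1.42.0 on recovered reads, each embryo left out, the title number, and the fits with and without the block. The limma fits were first tried on simulated counts drawn without an embryo effect, and no result here rests on that trial. GENCODE M21 held 16103 of the listed IDs.

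The members, gene lists and marker lists were chosen with earlier results of these data known. Named genes are all 6 members, listed genes within 500 kb, the 3 genes closest in pattern to each member, up to 3 called genes per list and dKO comparison with the smallest adjusted p (the 2 most abundant where none was called), and Meis1 and Meis2; Bmp10 in atria, Kcnd2, Nav1, Abcc9, Tbx5, Eln, Fbln5 and Hoxa5 were added after their values were seen. Some genes that this rule names are not reported here.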

Additional observations from a re-analysis of the deposited data

Results flagged for a closer look

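Irx3 in the dKO ventricles measured 33.2 CPM in the second embryo, with 25.2 to 26.4 CPM in the other 3. The gap to the nearest of them was 0.852 of the whole range of the group, above Dixon's critical value for 4 samples, which chance passes in about 1 in 20 groups. With 4 groups for each of 6 members, a group past this value can arise by chance. The library with 33.2 CPM was also the shallowest, with 7.88 megareads. Without it the difference of dKO minus control ventricles for Irx3 was -0.03 in place of 0.05, and it was called in neither case.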

How the results depend on the processing

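Of the comparisons counted over members, the number called in dKO ventricles was 2 and became 0 within the title number shared by 2 embryos of each genotype and 0 in the fit to all 16 libraries with the replicate block; it was 2 without each embryo in turn. The number called for the interaction was 0 and became 2 with a pseudocount of 5, which compresses the atrial differences of those genes. In chamber comparisons, 5 to 6 members were called in dKO embryos and 5 in control embryos (4 with a minimum of 5 CPM, where Irx6 was not tested), and leaving out the replicate block changed no call. Signs turned for values near 0: Irx1 in atria (-0.02 within that title number, and -0.16 to 0.31 with each embryo left out, lowest without dKO replicate 4), Irx2 in atria (-0.11 to 0.19, lowest without dKO replicate 4, with -0.01 and -0.04 without control replicates 1 and 2), Irx4 in atria (0.19 within that title number), Irx3 in ventricles (-0.03 without dKO replicate 2, otherwise up to 0.09), Irx5 between control chambers (0.04 without control replicate 4, otherwise down to -0.28) and Irx4 in the interaction (0.07 by DESeq2). The cause was not tested. Of the members' own values, 522 of those recomputed kept direction and side of the threshold, 9 turned, 8 lost a call and 2 gained one. Depth limits Irx6 in ventricles and Irx1, Irx2 and Irx4 in atria.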
